A study of Mus musculus with 6 samples.

Results

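Prss56 encodes a secreted serine protease with a trypsin-like domain, and its transcript was followed here in mouse retinas that had received titanium dioxide nanoparticles. It is 1 of 26141 genes measured, and 1 of the 39429 probes on the array reads it. The gene was chosen by its log2 ratios on these same arrays, which stood far higher at the larger dose than at the smaller one. Its own ratios are therefore given as a description, with no test, and the tests below concern other genes.

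Groups of male C57BL/6 mice aged 8 weeks were compared 7 days after an injection into the vitreous of the right eye. The 10PTC group received titanium dioxide nanoparticles at 10 times the dose of the PTC group, the PTC group received the single dose, and the control group received PBS. PTC is the labels' own name for a dose, and they give no concentration. With 12 mice in each group and 4 retinas to a pool, a dose is represented by 3 pools. Every array carried RNA of a treated pool in Cy5 against RNA of PBS retinas in Cy3, and the dyes were never exchanged, so that a dye effect and a treatment effect cannot be told apart for a single gene. The 10PTC pools and PTC pool 3 were hybridised on slide 2, and PTC pools 1 and 2 on slide 1.

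In the mouse retina Prss56 is known as a gene of Muller glia, the radial glial cells that span the whole thickness of the tissue. Loss of its function shortens the eye in mice and causes small, strongly hyperopic eyes in people, and common variants near the human gene are associated with myopia. Outside the eye, Prss56 marks boundary cap cells, a population at the exit points of nerve roots from which Schwann cells arise, and neural stem cells of the adult brain. The arrays hold whole retina, in which fewer cells of a type and less RNA per cell cannot be told apart. All 25 Muller glia markers and all 12 rod markers listed were measured. So were all 17 skeletal muscle genes and all 9 lens genes listed, and being measured therefore does not tell these tissues apart.

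The only probe of Prss56 lies at chr1:89083595-89083751 on the plus strand of mm9, the build of the array design. The file names the gene by its older clone name 1700027L20Rik, and the match to Prss56 was made by that synonym. The 60 bases of the probe cover 157 bases of the genome, which leaves 97 bases between the stretches that it joins. None of its 3 reading frames holds a stop codon, and the sources used here do not say whether it lies in coding sequence or in a UTR. Its G and C content was 55.0%, against a median of 41.7% over all probes. The probe is shown because every value of Prss56 below is read from this one sequence, which was spotted once per array.
Prss56 probe: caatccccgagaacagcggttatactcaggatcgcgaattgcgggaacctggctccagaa

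The 250 bases before the start of Prss56, from RefSeq on GRCm38.p6, lie at chr1:87183064-87183313 on the plus strand. They are shown because they are the sequence next to the start of the gene that differed most between the doses. Capitals mark matches to the letters of 2 motifs, searched on both strands.
Prss56 upstream: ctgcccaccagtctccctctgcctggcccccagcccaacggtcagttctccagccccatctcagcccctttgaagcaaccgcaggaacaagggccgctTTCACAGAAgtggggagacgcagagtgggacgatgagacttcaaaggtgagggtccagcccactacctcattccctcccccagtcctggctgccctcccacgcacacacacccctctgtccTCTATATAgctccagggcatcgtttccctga
The first run in capitals matches TTCNNNGAA, the letters bound by STAT factors, 152 to 144 bases before the start. Those letters occur in 7.2% of 27025 upstream regions of this length. The second run holds 2 overlapping matches to TATANA, the letters of a TATA box, at 31 to 26 and at 29 to 24 bases before the start, and 23.4% of upstream regions hold such a match. The AP-1 letters TGANTCA, present in 6.9% of upstream regions, did not occur. These matches describe the letters only.

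On the Prss56 spot, Cy5 signals of the treated pools were 2590, 3724 and 1652 scanner units on the 10PTC arrays. They were 306, 227 and 311 units on the PTC arrays. The Cy5 signals of the doses did not overlap, and the highest of them was 10PTC pool 2. PBS control signals in Cy3 on the same spot were 274, 336 and 241 units on the 10PTC arrays and 158, 148 and 180 units on the PTC arrays. Local background was 42 to 52 units in Cy5 and 25.5 to 34 units in Cy3. In both channels of all 6 arrays the spot was well above background, and on none was it marked as an outlier or saturated.

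**Figure D1:**
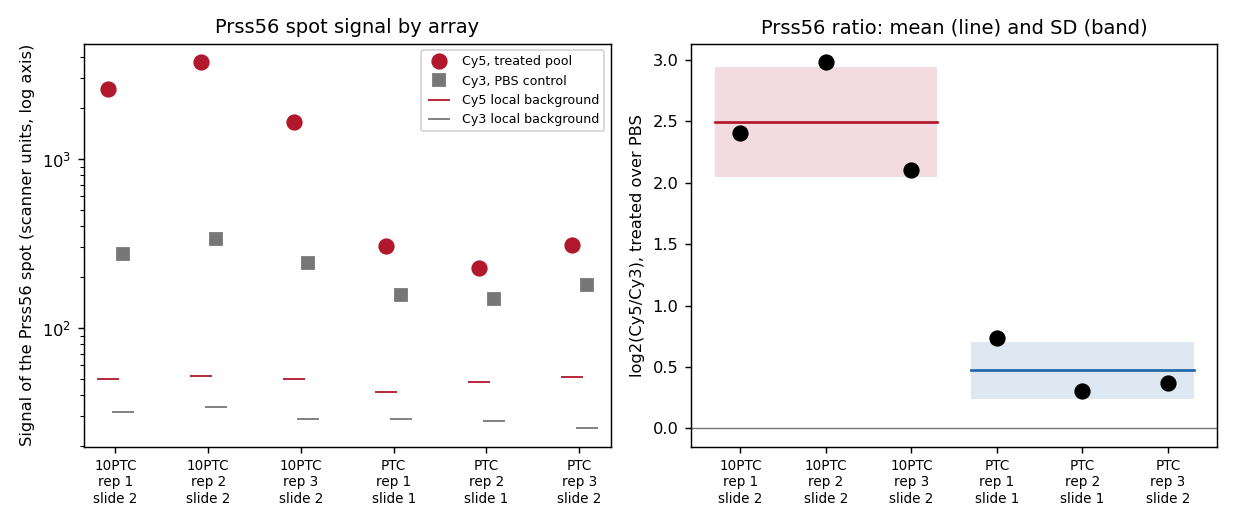
The left panel plots the signal of the Prss56 spot on each of the 6 arrays, on a log axis in scanner units, with circles for the treated pool in Cy5, squares for PBS RNA in Cy3 and short lines for the local background. The right panel plots log2 of treated over PBS per array, with lines and bands for the mean and SD of each dose: the 10PTC arrays lie between 2.1 and 2.98 and the PTC arrays between 0.31 and 0.74.

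After background correction and loess normalization, the log2 ratios of Prss56 over PBS were 2.40, 2.98 and 2.1 in the 10PTC pools. They were 0.74, 0.31 and 0.37 in the PTC pools. All 6 pools were above PBS, and the lowest 10PTC pool lay 1.36 log2 units above the highest PTC pool. The mean was 2.49 ± 0.45 at 10PTC and 0.47 ± 0.23 at PTC (SD, n = 3 each). These means correspond to 5.64 times the PBS level at 10PTC and to 1.39 times it at PTC. The difference between the doses, 10PTC minus PTC, was 2.02 log2 units, or 4.06-fold.

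Slides and doses overlapped only in part. Within slide 2, the 3 10PTC pools exceeded the single PTC pool there by 2.12 log2 units on average, with a range of 1.73 to 2.61. The smallest of these differences was 3.32-fold and the largest 6.10-fold.

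In the authors' deposited table, log2 ratios of Prss56 were 2.68, 3.22 and 2.46 for the 10PTC pools. The same table gave 1.06, 0.54 and 0.59 for the PTC pools. The order of the pools within each dose was the same as in the ratios above. Values of both doses were larger in that table, with means of 2.79 at 10PTC and 0.73 at PTC.

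Levels in each channel can be placed on one scale after quantile normalization of the arrays' mean intensities (Aquantile), in log2 units. In PBS RNA the level of Prss56 was 8.05 ± 0.35 (SD, n = 6 arrays), with values between 7.62 and 8.55. At PTC it was 8.23 ± 0.29 (SD, n = 3), between 7.99 and 8.56, and at 10PTC it was 10.83 ± 0.65 (SD, n = 3), between 10.25 and 11.53. With PBS taken over all 6 arrays, the order of the mean levels was thus PBS, PTC, 10PTC. On the 10PTC arrays alone the PBS level averaged 8.33, above the PTC mean of 8.23. The levels of PTC and PBS overlapped across arrays, whereas every 10PTC pool lay above all others. On the PTC arrays alone, which carry both RNAs, PTC levels of 7.99 to 8.56 did not overlap PBS levels of 7.62 to 7.84. The Cy5 level differed by 2.60 log2 units between 10PTC and PTC.

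The PBS channel was not level across arrays on this spot. The Cy3 level averaged 8.33 ± 0.20 on the 10PTC arrays and 7.76 ± 0.12 on the PTC arrays (SD, n = 3 each), although both held PBS RNA. Scaled to each array's median within slide 2, the Cy3 value of the Prss56 spot was 0.64 log2 units higher on the 10PTC arrays than on the array of PTC pool 3, where the same difference over all spots had an SD of 0.10 and 99.8% of spots had a smaller one. Among the 10PTC arrays, the order of the Cy3 values (pool 2, pool 1, pool 3) was that of the Cy5 values. Of the 59 spots whose scaled Cy5 signal differed by at least 1 log2 unit in the same direction, 48 had a higher Cy3 value as well, with a median difference of 0.083 and a range of -0.051 to 2.54. Over all spots the median Cy3 difference was -0.0002, and 0.083 is within the SD of 0.10 over all spots. The Cy5 difference of Prss56 computed this way was 2.88. The part of the Cy3 shift in the ratio was not tested.

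Set against the other genes, Prss56 ranked 4 of 26141 by its mean ratio at 10PTC. Bcl3, an atypical IkB protein that modulates NF-kB, averaged 2.85 ± 0.13 at 10PTC and 2.59 ± 1.13 at PTC. Cebpd, a transcription factor of the acute-phase response, averaged 2.63 ± 0.24 at 10PTC and 2.03 ± 0.76 at PTC. Ecel1, the remaining gene above Prss56 at 10PTC, is described with the neighbours. All 3 rose at both doses, whereas at PTC Prss56 ranked 953.

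By the difference 10PTC minus PTC, Prss56 ranked 1 of 26141. It was also the only gene whose lowest 10PTC pool exceeded its highest PTC pool by more than 1 log2 unit. The next was Nkd1, an inhibitor of Wnt signalling, with a gap of 0.65 between the doses' nearest pools and means of 0.60 at 10PTC and -0.19 at PTC. All 10PTC pools lay above all PTC pools, by any amount, for 2331 genes, or 8.92% of those with a value on every array. Only Prss56 and Gp2 had means at least 2-fold higher at 10PTC than at PTC, and the 10PTC pools of Gp2 had an SD of 1.77. In the other direction, 28 genes had means at least 2-fold lower at 10PTC than at PTC. Limma called 0 of 26141 genes (0%) between the doses after Benjamini-Hochberg adjustment, and 2132 genes had an unadjusted p under 0.05. The contrast between the doses served to choose Prss56, so nothing about it is read from these counts.

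**Figure D2:**
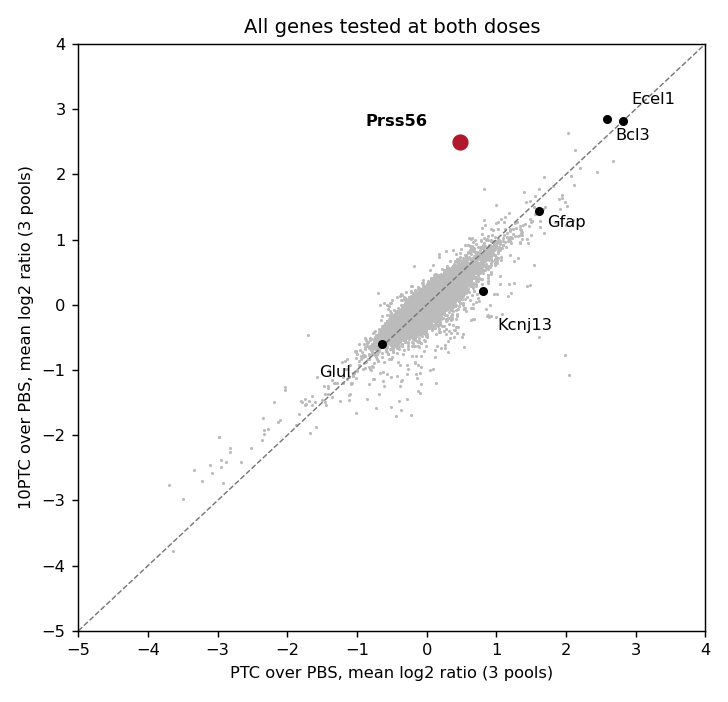
Each point is 1 of the 26141 genes, with the mean log2 ratio over PBS of 3 pools at PTC on the horizontal axis and at 10PTC on the vertical axis, and the dashed line marks equal ratios. Prss56 lies at 0.47 and 2.49, away from the line, whereas Ecel1 at 2.81 and 2.82 and Gfap at 1.61 and 1.44 lie close to it.

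The position of Prss56 was not used to choose it, so its genomic neighbours could be tested. Within 0.5 Mb of its probe, in the coordinates of the array design, 14 other genes had 18 probes. At 10PTC 2 of the 14 rose and 2 fell, against 14.4% of all genes higher and 13.3% lower at this dose by limma with an adjusted p under 0.05. At PTC 3 rose and 3 fell, against 16.8% higher and 16.2% lower among all genes. The median ratio of the 14 was 0.01 at 10PTC and -0.06 at PTC, and over all genes it was 0.00 at both. None of the 14 was called between the doses.

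The nearest neighbour on one side is Ecel1, whose probe lies 39 kb away. Ecel1 encodes a membrane metalloprotease of the endothelin-converting enzyme family that is induced in injured neurons. Its log2 ratios were 2.41, 2.89 and 3.17 in the 10PTC pools and 3.74, 1.97 and 2.73 in the PTC pools. The doses overlapped, and the highest pool was a PTC pool. Ecel1 rose at both doses, with 2.82 ± 0.39 at 10PTC (limma adjusted p = 0.00174) and 2.81 ± 0.89 at PTC (limma adjusted p = 0.0013). Its difference between the doses was 0.01 log2 units (limma adjusted p = 0.997), against 2.02 for Prss56 next to it.

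On the other side lie Chrnd and Chrng, which encode the delta and gamma subunits of the muscle acetylcholine receptor. Chrnd, 12.8 kb away, averaged 0.01 ± 0.11 at 10PTC and -0.07 ± 0.07 at PTC (limma adjusted p = 0.927 and 0.376). In each channel its spot was well above background on only 2 of 6 arrays. Chrng, 22.3 kb away, averaged -0.08 ± 0.11 at 10PTC and -0.12 ± 0.15 at PTC (limma adjusted p = 0.395 and 0.217). Neither passed the test at a dose in the main fit, but with median centring both passed as lower at both doses. Eif4e2, which encodes a cap-binding protein that represses translation, rose by 0.24 at 10PTC and 0.27 at PTC, although the 10PTC call was lost with the slide as a block (limma adjusted p = 0.198). Its other probes gave -0.20 and 0.17 at 10PTC and -0.14 and 0.07 at PTC.

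Farther along, Kcnj13, a potassium channel gene of the retinal pigment epithelium, ran opposite to Prss56 in dose. Its log2 ratios were 0.26, 0.35 and 0.02 in the 10PTC pools and 0.98, 0.87 and 0.60 in the PTC pools. Kcnj13 rose at PTC (limma adjusted p = 0.00137) and did not pass at 10PTC (limma adjusted p = 0.112). Its difference of -0.61 between the doses did not pass either (limma adjusted p = 0.566). With median centring Kcnj13 passed as higher at 10PTC as well, at 0.43 (limma adjusted p = 0.0047). Its other probe gave -0.04 at 10PTC and 0.45 at PTC. Dis3l2, an exoribonuclease gene, fell to -0.40 ± 0.12 at 10PTC and -0.18 ± 0.03 at PTC, while its other probe gave -0.10 at both doses. Ngef, which encodes a guanine nucleotide exchange factor, fell to -0.23 ± 0.02 at 10PTC and -0.35 ± 0.15 at PTC. With median centring Ngef was at 0.00 at 10PTC (limma adjusted p = 0.964) and Dis3l2 at -0.03 at PTC (limma adjusted p = 0.675), and the slide block ended the call of Dis3l2 at PTC (limma adjusted p = 0.0825). Neu2, which encodes a cytosolic sialidase, was at -0.16 ± 0.06 at 10PTC (limma adjusted p = 0.0632) and fell to -0.30 ± 0.11 at PTC. The other neighbours, Alppl2, Alpi, Akp3, Efhd1, Gigyf2 and Snorc, had means between -0.13 and 0.13 and were called at neither dose in the main fit. With median centring Akp3 passed as lower and Gigyf2 as higher at both doses, Alpi as lower at PTC and Efhd1 as higher at 10PTC.

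**Figure D3:**
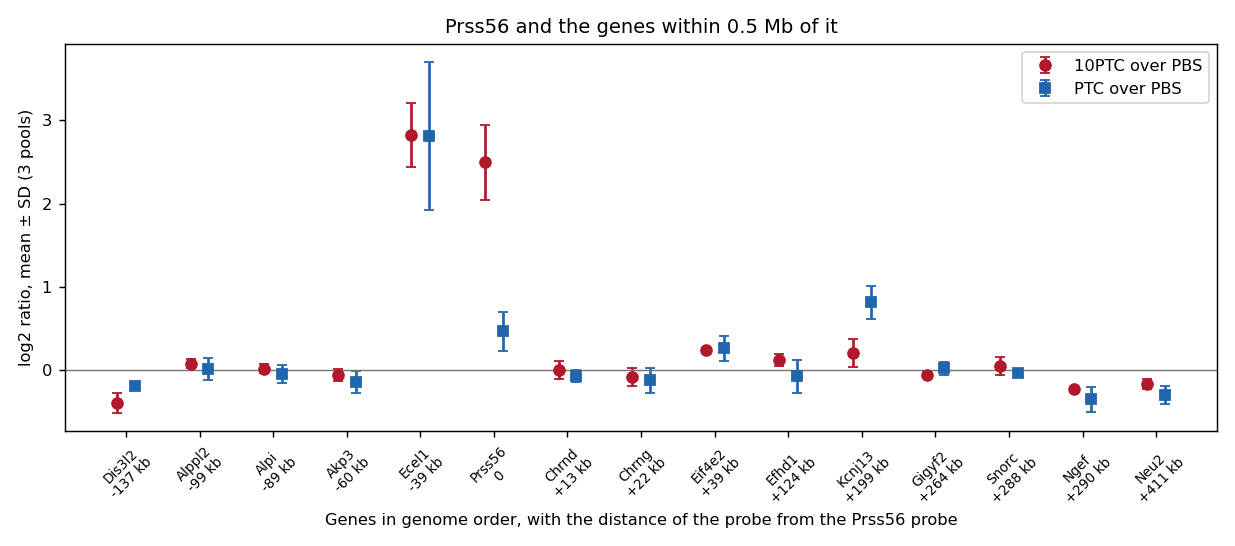
Genes within 0.5 Mb of Prss56 are shown in genome order with the distance of their probe from that of Prss56, and the vertical axis gives the log2 ratio over PBS as mean ± SD of 3 pools, circles for 10PTC and squares for PTC. Ecel1 stands near 2.8 at both doses, Prss56 at 2.49 for 10PTC and 0.47 for PTC, and Kcnj13 at 0.21 for 10PTC and 0.82 for PTC.

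The pattern of Prss56 over the 6 arrays was compared with that of 16580 genes that have a symbol and stood well above background in Cy5 on every array. By root mean square difference of the log2 ratios, Cxcl10, a chemokine induced by interferon, was most like it, at 0.80. The log2 ratios of Cxcl10 were 1.89, 1.40 and 2.04 in the 10PTC pools and 0.87, 0.21 and 1.38 in the PTC pools. Its doses did not overlap, yet its difference of 0.96 did not pass the test (limma adjusted p = 0.57). The next were Tnnt2, the cardiac troponin T gene, at 0.83, then Ccdc194, Olfr160 and Antxr2, a receptor for anthrax toxin, and finally Fgf2, a fibroblast growth factor made by stressed Muller glia, at 1.00. Tnnt2 averaged 1.53 ± 0.05 at 10PTC and 0.99 ± 0.54 at PTC. The PBS level of Olfr160 was not well above background on any array. Each of these 6 genes had a smaller difference between the doses than Prss56, as every gene must, since Prss56 ranked 1 of 26141 by it.

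A different set of genes followed the shape of Prss56 rather than its size. By Pearson correlation over the 6 arrays, the highest were Itpkc, which encodes an inositol trisphosphate kinase, with r = 0.994, then Josd1, a deubiquitinase gene, Calr, which encodes the endoplasmic reticulum chaperone calreticulin, Scd1, a stearoyl-CoA desaturase gene, Sh3rf3, and H2ax, a histone variant gene. Their ratios were far from those of Prss56, with root mean square differences of 1.69 to 2.31. Scd1 averaged -0.55 ± 0.03 at 10PTC and -0.64 ± 0.02 at PTC, and H2ax averaged -0.31 ± 0.05 at 10PTC and -0.56 ± 0.03 at PTC. In all, 125 of the 16580 genes had r above 0.95 with Prss56, where both genes of a pair were read from the same arrays. No gene was among the 6 most alike by both measures.

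Muller glia are the known source of Prss56 in the retina, and their markers were counted as a list. Of 25 markers, 12 rose and 4 fell at 10PTC, with a median of 0.21, and 11 rose and 4 fell at PTC, with a median of 0.17. When the slide entered as a block, 4 rose and none fell at 10PTC. Median centring in place of loess gave 19 higher and 1 lower at 10PTC and 17 higher and 1 lower at PTC, so that most of the falls depended on the normalization. Under median centring 9645 of all genes were called higher and 5007 lower at 10PTC. With the slide as a block 598 of all 26141 genes were higher and 408 lower, against 3761 and 3468 in the main fit. The counts of a list under the block, here and below, are to be read beside these. In the main fit the shares among all genes were 14.4% higher and 13.3% lower at 10PTC, against 48% and 16% of the markers. Crym, which encodes a thyroid hormone binding protein, rose to 1.82 ± 0.15 at 10PTC and 1.82 ± 0.74 at PTC (limma adjusted p = 0.00314 and 0.00234). Apoe, a lipid carrier gene, rose to 0.86 ± 0.08 at 10PTC and 0.67 ± 0.30 at PTC. Clu, which encodes the extracellular chaperone clusterin, rose to 0.78 ± 0.10 at 10PTC and 0.80 ± 0.31 at PTC. None of the 25 was called between the doses.

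Dkk3, a secreted protein gene of the Dickkopf family, rose to 0.52 ± 0.15 at 10PTC and 0.51 ± 0.15 at PTC. Slc1a3, the glial glutamate transporter gene, rose to 0.45 ± 0.04 at 10PTC and 0.44 ± 0.25 at PTC, and Sox9, a glial transcription factor gene, rose to 0.33 ± 0.05 at 10PTC and 0.28 ± 0.23 at PTC. Glul, which encodes glutamine synthetase, fell to -0.61 ± 0.08 at 10PTC and -0.64 ± 0.21 at PTC (limma adjusted p = 0.00323 and 0.00205). Car14, a carbonic anhydrase gene, and Spc25, a kinetochore gene that is also a Muller glia marker in mice, fell at both doses, but neither passed at a dose with median centring or with the slide as a block. The block also ended the 10PTC calls of Glul (limma adjusted p = 0.0592), Slc1a3 and Sox9, and the PTC call of Sox9. Rlbp1, which encodes the retinaldehyde carrier of Muller glia, was at 0.00 ± 0.08 at 10PTC and 0.01 ± 0.12 at PTC (limma adjusted p = 0.97 and 0.87), but it passed as higher, at 0.28 for 10PTC and 0.21 for PTC, when arrays were median centred in place of loess. Sox2 was at 0.07 ± 0.06 at 10PTC and 0.14 ± 0.24 at PTC and did not pass. With median centring Sox2 too passed as higher, at 0.23 for 10PTC and 0.29 for PTC (limma adjusted p = 0.0477 and 0.025).

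Genes of reactive glia rose at both doses. Of 24 members measured, 20 rose at 10PTC (median 1.19) and 21 at PTC (median 1.12), and none fell at either dose. Over all 26141 genes, 3761 rose at 10PTC in this fit and 598 with the slide as a block. The fit with the slide as a block called 7 as higher at 10PTC. Gfap, the intermediate filament gene of activated Muller glia and astrocytes, had log2 ratios of 1.30, 1.53 and 1.48 in the 10PTC pools and 2.33, 1.23 and 1.28 in the PTC pools. The doses overlapped, and PTC pool 1 was highest. Gfap rose to 1.44 ± 0.12 at 10PTC and 1.61 ± 0.62 at PTC (limma adjusted p = 0.00373 and 0.002). Of its 3 probes, the weakest gave 0.25 at 10PTC and 0.10 at PTC.

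Edn2, an endothelin ligand gene of stressed photoreceptors, rose to 2.38 ± 0.08 at 10PTC and 2.13 ± 0.73 at PTC. C4b, a complement component gene, rose to 1.40 ± 0.10 at 10PTC and 1.56 ± 0.29 at PTC, and Cp, which encodes the ferroxidase ceruloplasmin, rose to 1.68 ± 0.23 at 10PTC and 1.56 ± 0.61 at PTC. The other Cp probe gave 0.65 at 10PTC and 0.73 at PTC. The list's median per array lay between 1.07 and 1.25 in the 10PTC pools and between 0.65 and 1.79 in the PTC pools. The PTC pools thus spread on both sides of the 10PTC pools for reactive glia genes, and PTC pool 1 was highest among them. PTC pool 1 also had the highest Prss56 ratio of its dose, at 0.74, which was still below every 10PTC pool. Of the 24 reactive glia genes, 0 were called between the doses.

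**Figure D4:**
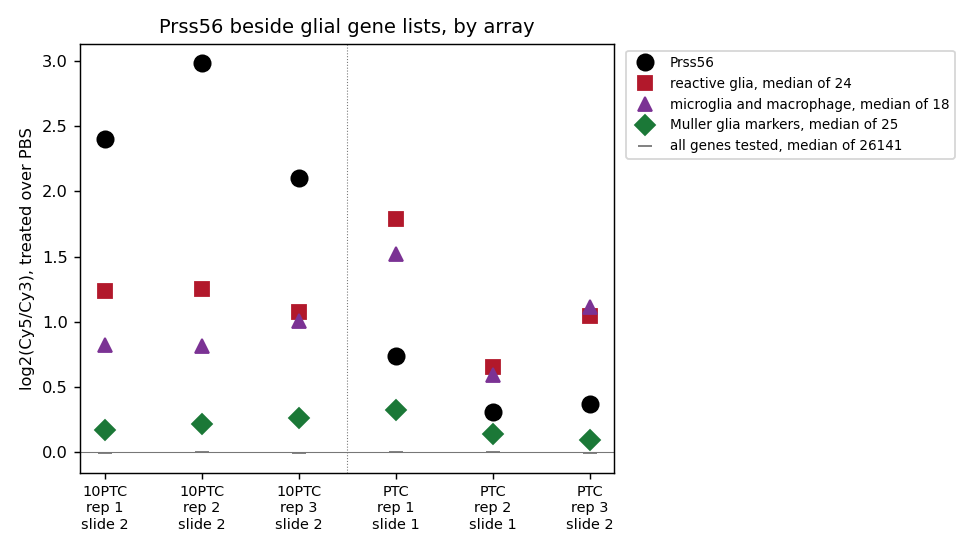
For each of the 6 arrays, the vertical axis gives the log2 ratio over PBS of Prss56 (circles) and the median over 24 reactive glia genes (squares), 18 microglia and macrophage genes (triangles), 25 Muller glia markers (diamonds) and all 26141 genes (dashes). The reactive glia median lies between 1.07 and 1.25 in the 10PTC pools and reaches 1.79 in PTC pool 1, while Prss56 lies above it in every 10PTC pool and below it in every PTC pool.

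The leukaemia inhibitory factor and endothelin pathway links injured photoreceptors to Muller glia through the receptor subunit gp130 and STAT3. Of its 22 members measured, 9 rose at 10PTC and 10 at PTC, and none fell at either dose. The median was 0.19 at 10PTC and 0.26 at PTC. Of the genes that rose, Edn2, Osmr, Cntf, Stat3, Socs3 and Fgf2 also belong to the reactive glia list, so the lists are not independent. Lif itself was called at neither dose, at 0.157 for 10PTC and 0.125 for PTC (limma adjusted p = 0.208 and 0.296). In the main fit 14.4% of all genes rose at 10PTC and 16.8% at PTC. Among all 26141 genes 598 rose at 10PTC when the slide entered as a block. With the slide as a block 1 member rose at 10PTC. Il6st, which encodes gp130, rose to 0.56 ± 0.03 at 10PTC and 0.50 ± 0.22 at PTC. Osmr, a partner receptor of gp130, rose to 1.16 ± 0.10 at 10PTC and 1.24 ± 0.58 at PTC. Fgf2 rose to 1.34 ± 0.04 at 10PTC and 1.12 ± 0.58 at PTC. With the slide as a block the 10PTC calls of Il6st, Osmr and Fgf2 were lost, at limma adjusted p of 0.0582, 0.0533 and 0.0578. None of the 22 was called between the doses.

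Prss56 belongs to the trypsin-like serine proteases, and the rest of that family did not move as a group. Of 51 other members listed, 43 were measured. At 10PTC 7 rose and 7 fell, with a median of -0.01, and at PTC 6 rose and 4 fell, with a median of 0.03. These shares, 16.3% higher and 16.3% lower at 10PTC, are close to those of all genes given above. Blocking on slide left 4 higher and 2 lower at 10PTC. None of the 43 was called between the doses.

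Plat, the tissue plasminogen activator gene, had log2 ratios of 0.90, 0.78 and 0.85 in the 10PTC pools and 0.76, 0.13 and 0.25 in the PTC pools. Its doses did not overlap, with means of 0.84 ± 0.06 at 10PTC and 0.38 ± 0.33 at PTC, and its difference of 0.46 did not pass the test (limma adjusted p = 0.575). Cfi, which encodes complement factor I, had ratios of 0.83, 1.28 and 0.97 in the 10PTC pools and 0.71, 0.43 and 0.69 in the PTC pools, with a difference of 0.42 that did not pass either (limma adjusted p = 0.57). By the way Prss56 was chosen, the dose differences of Plat and Cfi were bound to be smaller than its own.

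Tmprss3, a membrane serine protease gene, rose to 0.83 ± 0.07 at 10PTC and 0.93 ± 0.19 at PTC on its brighter probe. The other Tmprss3 probe gave 0.018 at 10PTC and -0.025 at PTC, so the rise rests on 1 probe. F10, which encodes coagulation factor X, rose to 0.66 ± 0.05 at 10PTC and 0.54 ± 0.19 at PTC. The other F10 probe gave 0.24 at 10PTC and 0.22 at PTC. Cfd, which encodes complement factor D and is abundant in fat tissue, fell to -3.77 ± 0.10 at 10PTC and -3.64 ± 0.82 at PTC. The mast cell proteases Mcpt4 and Cma1 also fell at both doses, Mcpt4 to -0.41 ± 0.06 at 10PTC and -0.51 ± 0.05 at PTC. Tmprss5, a membrane protease gene, fell to -0.32 ± 0.11 at 10PTC and was at -0.08 ± 0.07 at PTC (limma adjusted p = 0.3). With the slide as a block Cma1 and Tmprss5 no longer passed at 10PTC, nor Plat and Cma1 at PTC.

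Of 30 listed inhibitors of serine proteases and related proteases, 24 were measured: 5 rose and 4 fell at 10PTC, with a median of 0.00, and 6 rose and 3 fell at PTC, with a median of 0.07. The shares at 10PTC, 20.8% higher and 16.7% lower, are near the 14.4% and 13.3% of all genes. A block for the slide left 1 higher at 10PTC. Serpina3n, a secreted serpin gene of reactive astrocytes, rose to 2.04 ± 0.35 at 10PTC and 2.45 ± 1.04 at PTC (limma adjusted p = 0.0064 and 0.00284). Serping1, the C1 inhibitor gene, rose to 0.99 ± 0.18 at 10PTC and 0.85 ± 0.44 at PTC. The other Serping1 probe gave 1.34 at 10PTC and 1.19 at PTC. Serpinb8, an intracellular serpin gene, rose to 0.79 ± 0.09 at 10PTC and 0.93 ± 0.23 at PTC, and A2m, which encodes the broad protease trap alpha-2-macroglobulin, rose to 0.79 ± 0.10 at 10PTC and 1.02 ± 0.65 at PTC. Serpinb9, a granzyme B inhibitor gene, rose to 0.24 ± 0.08 at 10PTC and was at 0.14 ± 0.15 at PTC. Pebp1, which binds phosphatidylethanolamine and inhibits Raf kinase, and Serpinb1a, an inhibitor of neutrophil proteases, fell at both doses. With median centring Pebp1 passed at neither dose and was at -0.06 at 10PTC and, with its sign turned, at 0.04 at PTC. The other Pebp1 probe gave -0.01 at 10PTC and -0.02 at PTC. With the slide as a block Serpina3n (limma adjusted p = 0.0623), Serping1, A2m, Serpinb9, Pebp1 and Serpinb1a no longer passed at 10PTC. None of the 24 was called between the doses, and Serpine3 was above background on 2 of 6 arrays and was not tested.

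**Figure D5:**
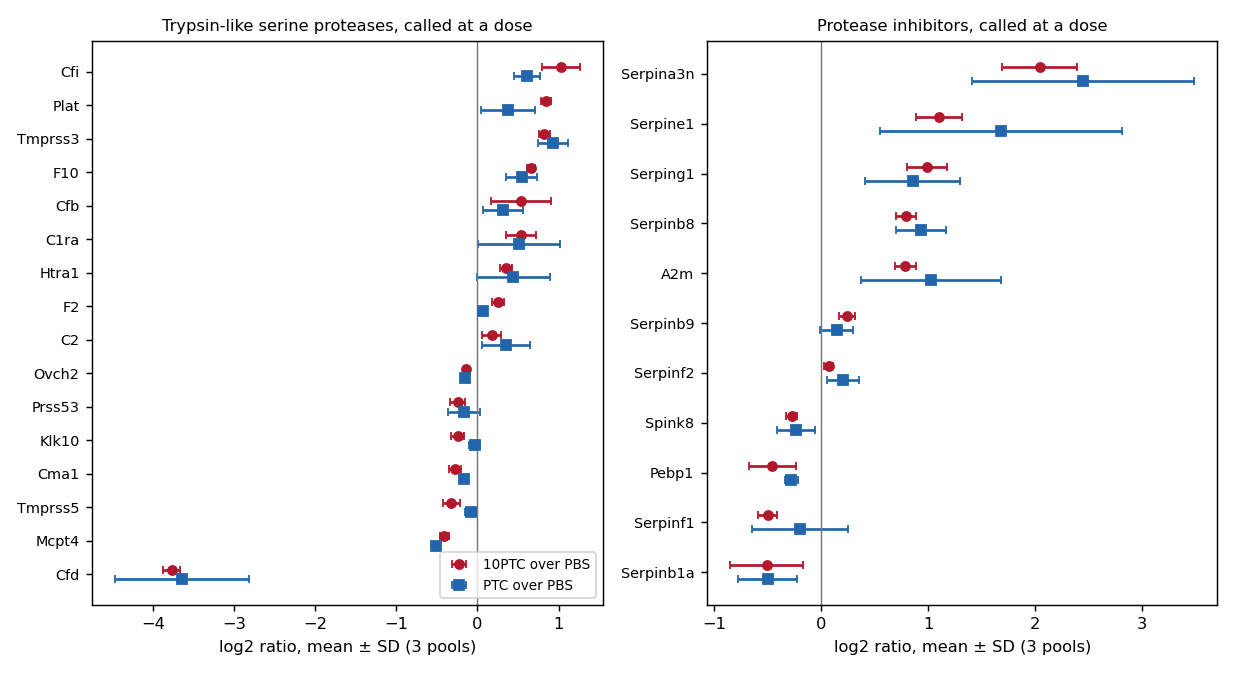
The left panel gives the trypsin-like serine proteases and the right panel the protease inhibitors that limma called at a dose, with the log2 ratio over PBS on the horizontal axis as mean ± SD of 3 pools, circles for 10PTC above squares for PTC. The ratios run from -3.77 for Cfd at 10PTC to 2.45 for Serpina3n at PTC. Prss56, which was chosen for its difference of 2.02 between the doses, is not plotted.

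Genes with a known part in eye size and refraction, the trait that Prss56 is known for, showed shares of calls near those of all genes. Of 32 listed, 29 were measured: 5 rose and 5 fell at 10PTC, with a median of 0.02, and 6 rose and 8 fell at PTC, with a median of -0.01. The shares at 10PTC were 17.2% higher and 17.2% lower, against 14.4% and 13.3% of all genes. Of them, 1 rose at 10PTC with the slide as a block. Egr1, a transcription factor gene whose loss in mice lengthens the eye and raises Prss56 in the retina, had log2 ratios of 0.44, 0.54 and 0.98 in the 10PTC pools and 1.16, 0.12 and 0.44 in the PTC pools. The doses overlapped. Egr1 rose to 0.65 ± 0.29 at 10PTC (limma adjusted p = 0.0383, and 0.158 with the slide as a block), and it averaged 0.57 ± 0.53 at PTC. Mfrp, a membrane protein gene whose loss raises Prss56 in the mouse retina, is not analysed here.

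Rbp3, which encodes the retinoid carrier between photoreceptors and pigment epithelium, rose to 0.60 ± 0.02 at 10PTC and 0.49 ± 0.15 at PTC. Lrp2, the megalin gene, rose to 0.30 ± 0.09 at 10PTC and 0.35 ± 0.08 at PTC. Zfp644, a zinc finger gene linked to high myopia in people, rose to 0.34 ± 0.16 at 10PTC and 0.47 ± 0.08 at PTC. The other Zfp644 probe had the opposite sign, with -0.12 at 10PTC and -0.07 at PTC. Gjd2, the connexin 36 gene, fell to -0.35 ± 0.07 at 10PTC and -0.47 ± 0.27 at PTC. Chrm1, a muscarinic receptor gene, and Mmp2, a gelatinase gene, fell at both doses. Lum, a proteoglycan gene of the sclera and cornea, fell to -1.18 ± 0.41 at 10PTC and was at -0.37 ± 0.72 at PTC (limma adjusted p = 0.288). Of the genes named here, Rbp3 alone kept its 10PTC call with the slide as a block, and Gjd2 also lost it with median centring. None of the 29 was called between the doses.

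Prss56 is also a marker of boundary cap cells, and genes of that lineage formed a further list. Of 18 measured, 5 rose and 3 fell at 10PTC, with a median of 0.04, and 5 rose and 4 fell at PTC, with a median of 0.09. Among all genes 14.4% rose and 13.3% fell at 10PTC, against 27.8% and 16.7% of this list. A slide block left 1 higher and 1 lower at 10PTC. Hey2, a Notch effector gene, rose to 0.59 ± 0.12 at 10PTC and 0.29 ± 0.14 at PTC, while its relative Hey1 fell to -0.38 ± 0.04 at 10PTC and -0.30 ± 0.08 at PTC. Dhh, a ligand gene of Schwann cells, rose to 0.31 ± 0.07 at 10PTC and 0.16 ± 0.09 at PTC, and passed at neither dose with the slide block. With median centring Hey1 no longer passed at PTC (limma adjusted p = 0.0571). Egr2, which marks boundary cap cells, was called higher at both doses, at 1.155 for 10PTC and 0.929 for PTC (limma adjusted p = 0.00821 and 0.0128). The slide block ended its 10PTC call (limma adjusted p = 0.0789). Egr2 was well above background in Cy5 on all 6 arrays but in PBS RNA on no array, which limits the size of its ratios.

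Of 28 genes of retinal progenitors and glial reprogramming, 2 rose and 5 fell at 10PTC and 6 rose and 9 fell at PTC. The share that fell at 10PTC, 17.9%, is near the 13.3% of all genes. The medians were -0.05 at 10PTC and -0.02 at PTC. No member was called at 10PTC with the slide as a block, and median centring gave 10 higher and 2 lower at 10PTC and 11 higher and 5 lower at PTC. Median centring moved the calls of all genes the same way, to 9645 higher and 5007 lower at 10PTC and 8204 higher and 4232 lower at PTC. Hes5, a Notch target gene, fell to -0.68 ± 0.30 at 10PTC and -0.88 ± 0.37 at PTC, and its 10PTC call was lost with the slide block.

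Other cell types and tissues that the pools could hold moved at the same doses. Of 18 microglia and macrophage genes, 14 rose at 10PTC and 15 at PTC and none fell, with medians per array of 0.81 to 1.00 in the 10PTC pools and 0.60 to 1.52 in the PTC pools. With the slide as a block 2 of these microglia and macrophage genes rose at 10PTC, and 598 of all 26141 genes did. Of 17 skeletal muscle genes, 15 fell at each dose, with medians per array of -2.31 to -2.0 in the 10PTC pools and -3.26 to -2.51 in the PTC pools. Of 14 scleral and connective tissue genes, 10 fell at 10PTC and 5 at PTC, with medians per array of -1.24 to -0.66 in the 10PTC pools and -1.06 to 0.17 in the PTC pools. With the slide as a block, 12 muscle genes fell at 10PTC and 15 at PTC, whereas 1 connective tissue gene fell at 10PTC and 8 at PTC. The part of these differences in the ratios of Prss56 was not tested.

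Pigment epithelium and ciliary genes rose in 6 and fell in 1 of 20 at 10PTC and rose in 9 and fell in none at PTC. Astrocyte genes rose in 4 of 12 at 10PTC and rose in 3 and fell in 1 at PTC. Rod genes rose in 5 of 12 at 10PTC and in 4 at PTC. Among all genes 14.4% rose and 13.3% fell at 10PTC, and 16.8% rose and 16.2% fell at PTC. A slide block left 1 pigment or ciliary gene, 1 astrocyte gene and 0 rod genes higher at 10PTC, and none lower. Of 9 lens genes none was called at 10PTC and 1 rose at PTC, and of 10 endothelial genes 1 rose and 1 fell at 10PTC and 2 rose and 2 fell at PTC. For none of the 16 lists was a member called between the doses. The larger separation of Prss56 was the basis of its choice and is not a result of setting it beside the lists.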

How the data were processed

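Each deposited scanner file gives the intensity of every spot in Cy5 and Cy3 (mean, background and processed signals) and a log10 ratio of Cy5 over Cy3. Per the file headers they come from Agilent Feature Extraction 10.7.3.1, while the submitters' processing notes name 9.3.2.1. The log2 ratios of a further file deposited by the authors had, against the scanner's log10 ratios, r of 0.983 to 1.00 and a slope of 3.32. Their medians were -0.075 to 0.039 per array, and the centring behind them is unknown. RNA was extracted with Trizol, per the labels' protocols, and whether the PBS RNA came from one pool or several is not given.

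Mean signals were corrected against the median local background by normexp (offset 50) and normalized by loess within arrays, with 1377 control spots at weight 0 and outlier spots (185 to 274 per array) left out. The software was R 4.3.3, limma 3.58.1 and, for reading files, the data.table package at version 1.17.8. Probes were matched to current symbols by accession (26161), symbol (3125) or synonym (911), and 9232 kept the name in the file. Of 39429 probes, 6918 were left out because fewer than 3 of 6 arrays had them well above background in either channel; the brightest probe of each gene was kept. A limma model over 6 arrays had a coefficient per dose, with 4 residual and 3.40 prior degrees of freedom and Benjamini-Hochberg adjustment over 26141 genes, at 0.05. The spread behind each p-value is that between pools of 4 retinas, and 6 arrays limit its precision. Median signals per array were 187 to 347 in Cy5 and 153 to 221 in Cy3.

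Under simulation with 200 changed genes among 26135, the test for 10PTC over PBS recovered 59.7%, 97.0% and 100% of changes of 1.25, 1.5 and 2-fold with 11 false calls. For 10PTC minus PTC the shares were 11.9%, 79.1% and 97.0% with 6 false calls. The simulation changed 200 genes, whereas the main fit called 3761 genes higher and 3468 lower at 10PTC. In the data, 2 genes were at least 2-fold higher and 28 at least 2-fold lower at 10PTC than at PTC, and 0 were called. The simulated shares therefore do not show that differences of these sizes are absent between the doses.

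Prss56 and the gene lists were chosen with earlier results of these data known. Named are Prss56, genes within 0.5 Mb, the 6 most alike by each of 2 measures, up to 8 called members with the smallest p at 10PTC in the Muller glia, eye size, protease and inhibitor lists, up to 4 in other lists, and 9 fixed names, of which not all are printed; Bcl3, Nkd1 and Gp2 were named after their values were seen. Alternatives were other background corrections, median centring, other probe filters, the authors' table, each array left out, and slide or replicate number as a block.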

Additional observations from a re-analysis of the deposited data

Results flagged for a closer look

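Genes whose 3 pools moved one way at 10PTC and the other way at PTC were looked for among those named. Rpe65, which encodes the retinoid isomerase of the pigment epithelium, was below PBS in all 10PTC pools (-0.46, -0.24 and -0.26) and above it in all PTC pools (0.02, 0.20 and 0.06). At 10PTC Rpe65 averaged -0.32 (limma adjusted p = 0.0102). It passed neither with median centring, at -0.08 (limma adjusted p = 0.215), nor with the slide as a block (limma adjusted p = 0.116). Its difference, 10PTC minus PTC, was -0.411 (limma adjusted p = 0.566).

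Calr was above PBS in all 10PTC pools, with a mean of 0.07 ± 0.07, and below it in all PTC pools, with a mean of -0.35 ± 0.09 (SD, n = 3 each), a difference of 0.42 (limma adjusted p = 0.48). Itpkc differed in the same way by 0.297 (limma adjusted p = 0.566) and Sh3rf3 by 0.296 (limma adjusted p = 0.566). Itpkc, Calr and Sh3rf3 were picked because their profile followed that of Prss56, so their direction was part of the choice. None of these 4 differences passed the test.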

How the results depend on the processing

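Prss56 kept its direction under every alternative tried, with ratios of 2.25 to 2.79 at 10PTC and 0.34 to 0.73 at PTC and a difference of 1.78 to 2.22 between the doses. Its PTC ratio moved by more than its SD with the scanner's processed signals (0.713) and in the authors' deposited table (0.733). Leaving out one array at a time gave 2.25 to 2.69 at 10PTC, 0.34 to 0.55 at PTC and 1.78 to 2.22 for the difference.

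Counts over all genes were less stable. At 10PTC, limma called 7229 genes (3761 higher, 3468 lower), against 4422 with processed signals, 4587 in the authors' table, 14652 with median centring (9645 higher, 5007 lower) and 1006 with the slide as a block, a fit in which no 10PTC array lies on slide 1. At PTC it called 8646 (4399 higher, 4247 lower), against 12436 with median centring (8204 higher, 4232 lower), 4611 with PTC fitted alone and 1705 within slide 2, where PTC has 1 pool that is assumed to vary like the 10PTC pools. Leaving out one array gave 1358 to 5077 at 10PTC, with 1358 without 10PTC pool 1 and 1564 without 10PTC pool 3. At PTC it gave 4995 to 7456, with 4995 without PTC pool 3. Between the doses it gave 0 to 1 genes, the 1 lower gene without PTC pool 3. With replicate number as a block, 6439 genes were called at PTC, 4804 at 10PTC and 0 between the doses, and Prss56 stayed at 2.50, 0.47 and 2.02. Same-numbered pools correlated at -0.27, 0.15 and 0.20 in their deviations, so the numbers were not taken to pair them. Of 512 counts per list under alternatives, 410 lay within 1.5 times the main count and 102 did not. The 6 genes most like Prss56 shared 4 with median centring, 2 with processed signals and 0 with Pearson correlation; the cause of these shifts was not tested. Signal over background limits Prss56 most at PTC and in PBS RNA.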
